A study of Mus musculus with 6 samples.

Results

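The Notch pathway was followed through cultured mouse muscle-derived stem/progenitor cells (MDSPCs) by 10 genes chosen by name. They are the receptors Notch1, Notch2 and Notch3, the ligands Jag1, Jag2 and Dll1, and the bHLH genes Hes1, Hey1, Heyl and Hes6. All 10 were found by identifier, with the same symbol in each of the 6 matrices, among the 21485 genes that the matrices share. MDSPCs are slowly adhering cells that remain after the faster adhering cells of digested skeletal muscle have been plated out. Per the labels, 3 populations came from young mice and 3 from old mice, and all 6 grew in proliferation medium on collagen type I before droplet-based 3′ single-cell RNA sequencing. Age, strain, sex, genotype and the number of mice behind a population are not given in the sources used here. All groups share the culture medium and no agent was added, so each population is a cultured isolate and not muscle tissue.

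In Notch signalling, a Delta or Jagged ligand on a cell binds a Notch receptor on its neighbour. The receptor is then cut, and its inner part enters the nucleus and joins Rbpj and Mastermind proteins to switch on Hes and Hey genes. In muscle, this pathway is known for holding satellite cells, the Pax7-expressing stem cells, back from differentiation, with Hes1, Hey1 and Heyl acting as repressors downstream of it. Hes6 has the same protein fold but is known as an antagonist of Hes1 that accompanies differentiation. Pax7 marks satellite cells and their progeny, and Myog encodes myogenin, the factor that starts terminal differentiation.

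Filters on depth left 61673 cells of 62849 barcodes, between 8674 and 12541 per population, with 133683424 to 196258384 unique molecular identifiers (UMIs, tags that count each RNA molecule once) per population and a median of 13001 to 19951 UMIs per cell. Young replicate 1 and old replicate 1 had been counted on a shorter gene list than the other 4 samples, and any pair of libraries shared 24 to 41 barcodes. Muscle regulators differed widely between populations: Myod1 was at 459, 468 and 909 CPM (UMI counts rescaled to a common library size, here without further scaling) in young replicate 2 and old replicates 2 and 3, and between 45.7 and 64.1 CPM in the others. The 10 muscle progenitor markers summed to 308, 1427 and 396 CPM in young replicates 1 to 3 and to 315, 1084 and 1933 CPM in the old replicates. Many markers of other cell types were low, but not all. In young replicates 1 and 3 and old replicate 1, the fibro-adipogenic markers summed to 283, 326 and 345 CPM, near the progenitor sums. The 6 immune markers summed to 1.46 to 8.20 CPM in the young and 1.40 to 4.61 CPM in the old samples: Tyrobp had no count and Ptprc, Adgre1 and Lyz2 stayed under 1 CPM, while Cd68 reached 7.33 CPM in young replicate 1 (9.33% of cells) and Csf1r 3.14 CPM in young replicate 2. The 5 glial markers summed to 82.0 to 320 and 125 to 494 CPM, nearly all of it Ncam1, which muscle cells also express, with Sox10 and S100b under 1 CPM. Among 8 endothelial markers Cdh5, Cldn5, Emcn and Kdr stayed under 1 CPM in each sample, and the list summed to 3.46 to 62.9 CPM across the young populations and 2.35 to 11.2 CPM across the old ones, the highest sum being due to Tek at 58.9 CPM in young replicate 2. The mural list, which includes the muscle gene Des, summed to 27.5 to 433 CPM across the young populations and 34.6 to 445 CPM across the old ones, and the fibro-adipogenic list to 283 to 446 and 299 to 511 CPM. Of that list, Lum, Dpt and Pi16 stayed under 1 CPM, while Gsn was at 149 to 317 CPM, and Col3a1, Cd34, Ly6a and Smoc2 reached 132, 119, 126 and 103 CPM in the population where each was highest (young replicate 2, old replicate 1, old replicate 2 and young replicate 2). The part of any such cells in the results was not tested.

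Levels below are CPM of the counts summed over all kept cells of a population, scaled with edgeR's TMM factors. UMIs count molecules by their 3′ ends, so values were not divided by transcript length, and levels are compared between samples of the same gene. A sum over a culture cannot tell fewer expressing cells from less RNA per cell. The labels call the populations biological replicates and do not say whether each came from its own animal. P-values between old and young therefore measure the spread between these populations. Those of comparisons within populations, fitted with a term for each population, measure the spread of the within-population difference.

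The age groups overlapped in each of the 3 receptors, and single populations differed widely. Notch1 (chromosome 2, 26457903 to 26516663) stood at 3.16, 31.3 and 4.22 CPM in young replicates 1, 2 and 3 and at 3.96, 16.9 and 7.04 CPM in the old replicates. Young replicate 2 and old replicate 2 were the high ones, and the groups overlapped. Notch3 (chromosome 17, 32120820 to 32166852), a receptor also known from mural cells, spread further, with 2.54, 68.6 and 1.36 CPM across the young populations and 2.70, 40.2 and 19.3 CPM across the old ones. The highest level was 50.4 times the lowest, and both groups held low and high samples. Notch2 (chromosome 3, 98013527 to 98150361) was the steadiest receptor, at 16.7, 55.5 and 19.9 CPM across the young populations and 21.7, 34.2 and 37.3 CPM across the old ones. Its exons overlap those of Gm42820 on the same strand in the annotation.

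Among the ligands, Jag2 was the only member whose age groups did not overlap. Jag2 (chromosome 12, 112907819 to 112929776) was at 5.41, 4.36 and 5.64 CPM across the young populations and 10.7, 11.3 and 25.5 CPM across the old ones, with means of 5.14 ± 0.680 and 15.8 ± 8.38 CPM (SD, n = 3 each). Every old population lay above every young one, also without TMM scaling, and old replicate 3 was the highest. The groups of 6.05% of all 14512 genes tested did not overlap, and 3.63% had every old sample above every young one. Dll1 (chromosome 17, 15367354 to 15376872), a ligand made by differentiating myoblasts, was at 3.05, 15.6 and 2.23 CPM across the young populations and 4.25, 33.9 and 39.8 CPM across the old ones. Old replicate 1 lay below young replicate 2, so the groups overlapped. Jag1 (chromosome 2, 137081456 to 137116644) was low in each population, at 4.77, 6.86 and 3.29 CPM across the young populations and 6.15, 4.45 and 2.68 CPM across the old ones.

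The age groups overlapped in each of the 4 Hes and Hey genes. Hes1 (chromosome 16, 30064384 to 30067796) was at 59.7, 72.9 and 22.7 CPM across the young populations and 119, 68.9 and 109 CPM across the old ones, with old replicate 2 just below young replicate 2. Hes6 (chromosome 1, 91411483 to 91414038) was at 125, 212 and 264 CPM across the young populations and 91.6, 591 and 1201 CPM across the old ones. Old replicates 2 and 3 lay above all young samples and old replicate 1 below them. Hey1 (chromosome 3, 8663359 to 8667256) was at 40.8 CPM in young replicate 2, at 3.96 and 3.90 CPM in old replicates 2 and 3, and at 0.177, 0.460 and 0.137 CPM in young replicates 1 and 3 and old replicate 1. Heyl (chromosome 4, 123233556 to 123249875) was low and high in the same samples, with 222, 189 and 333 counts in young replicate 2 and old replicates 2 and 3 and 1, 3 and 2 counts in young replicates 1 and 3 and old replicate 1. Heyl, Hey1, Dll1, Notch1, Notch2 and Notch3 each had their 3 highest levels in young replicate 2 and old replicates 2 and 3, the samples with the higher Myod1 levels given above, and the part of Myod1-expressing cells in these values was not tested.

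**Figure D1:**
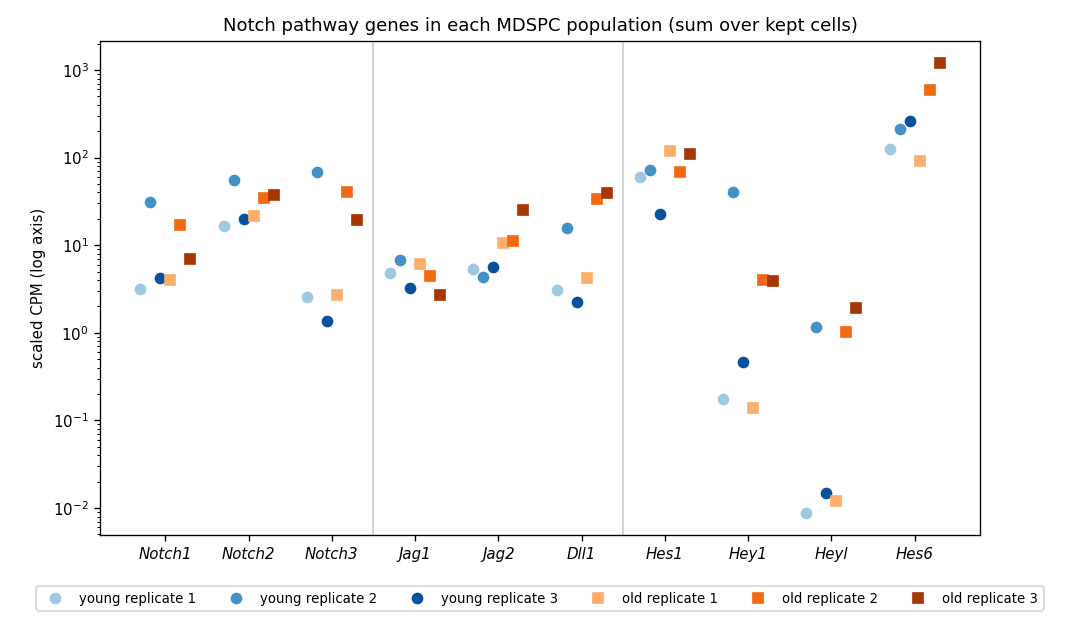
Scaled CPM of each of the 10 genes (log axis) in each population; circles are young and squares old samples, and each point is 1 population. Jag2 is the gene in which the 3 old points sit above the 3 young ones, and Hey1 runs from 0.137 to 40.8 CPM.

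None of the 10 genes passed the test between old and young. With edgeR's quasi-likelihood test and a term for the gene list, 0 of the 10 had an adjusted p under 0.05, against 0.00689% of all genes tested, and DESeq2 also called 0 of them. At an unadjusted p under 0.05 edgeR named 1 member, Jag2, against 3.53% of all genes. The Jag2 log2 fold change, old over young, was 1.58 (SE 0.42, edgeR unadjusted p = 0.0106, adjusted p = 1), and it kept its sign in each alternative run, from 1.09 to 1.88, with adjusted p from 0.0639 (DESeq2) to 1. Dll1, Hes6 and Hes1 had fold changes of 1.54 (SE 0.78), 1.16 (SE 0.61) and 0.93 (SE 0.47), with overlapping groups. Single populations moved these values: Dll1 was at 0.91 without young replicate 3 and 2.40 without young replicate 2, Hes1 at 0.58 and 1.53 without the same populations, and Hes6 at 0.60 without old replicate 3 and 1.91 without old replicate 1. The 18 muscle differentiation markers summed to 1247, 4162 and 409 CPM (unscaled) in young replicates 1 to 3 and to 386, 2382 and 14747 CPM in the old replicates. The sum was highest in old replicate 3, where Jag2, Dll1, Hes6 and Heyl were also highest. The part of differentiating cells in the values of these genes was not tested. Hey1 was at -1.79 (SE 1.45), a value that rested on young replicate 2: without that population it was 1.56. Notch3, Notch1 and Jag1 were at -0.13, -0.27 and -0.22, and without young replicate 2 they became 2.42, 0.97 and 0.20. Notch2 was at 0.07 (SE 0.41). Its value was -0.22 without young replicate 3 and -0.08 without young or old replicate 1. Heyl was at 1.16 (SE 1.45), a fitted value on counts of 3 or fewer in 3 samples. It became 4.89 without young replicate 2. The median over the 10 genes was 0.50, and over all genes -0.01, and the members' median was 0.08 without young replicate 3 and 1.46 without young replicate 2.

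The share of cells in which a gene was seen was measured as well. Each kept cell with enough UMIs was thinned at random to 5000 UMIs, and the share of cells with at least 1 UMI of the gene was counted, with Wilson 95% half-widths of at most 0.989 points over the 60 values. Hes6 was seen in 31.4%, 46.1% and 65.6% of cells across the young populations and 29.9%, 79.4% and 93.4% across the old ones, and without thinning in 55.9%, 75.8%, 90.2%, 53.6%, 94.7% and 97.4%. Hes1 was seen in 20.4%, 26.6% and 10.6% of cells across the young populations and 39.7%, 25.2% and 34.6% across the old ones, without thinning in 26.9% to 62.1%. Jag2 was seen in 2.53%, 2.09% and 2.91% of cells across the young populations and 5.29%, 5.42% and 11.4% across the old ones (without thinning 6.28%, 7.02% and 9.50%, and 14.3%, 19.9% and 27.6%). For the receptors, the share of cells with Notch3 ran from 0.743% in young replicate 3 to 27.6% in young replicate 2, with Notch1 from 1.23% to 14.6% and with Notch2 from 7.07% to 23.7%. Without thinning these ranges were 2.17% to 56.6%, 3.82% to 38.2% and 18.7% to 56.6%. Heyl was seen in 0 of 8444 thinned cells of young replicate 1, which allows a share of up to 0.0355% of cells with a UMI at this depth and sets no limit on cells that express it (1 count was seen without thinning), and in at most 1.05% of the cells of any sample. Intervals and limits of this kind cover counting error only. No cell type in these cultures is known to lack all Notch genes, so a background share from free RNA could not be measured for them. The immune gene Ptprc, as a gene that muscle cells should lack, was found in at most 0.0788% of unthinned cells of any population. With so little Ptprc RNA in the cultures, this share cannot measure the background of genes that many of the cells express.

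To set the pathway against the state of a cell, cells with at least 1 Pax7 UMI and no Myog UMI (Pax7-positive) were compared with cells with at least 1 Myog UMI and no Pax7 UMI (Myog-positive) of the same population. Young replicate 3 had 5 Pax7-positive cells and was left out of this comparison, since at least 50 cells of each class were asked for. The other populations had 1033, 4436, 1206, 2098 and 2295 Pax7-positive cells and 359, 1756, 99, 1465 and 5032 Myog-positive cells (young replicates 1 and 2, then old replicates 1, 2 and 3). Their median depths were 13440 to 20064 and 12041 to 20466 UMIs. Muscle differentiation genes checked the split: of 17 such genes other than Myog, 16 or 17 were higher in the Myog-positive cells of each population, and their summed level rose from between 240 and 1026 CPM to between 9258 and 29030 CPM. The progenitor list did not separate the classes the opposite way: of 9 such genes other than Pax7, which include Myod1 and Des, 3 to 6 were higher in the Myog-positive cells of a population, and their summed level was higher there in 5 of 5 populations (407 to 1730 against 988 to 2109 CPM). Cells with UMIs of both genes numbered 18 to 1990 in these populations and formed neither class.

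In this comparison 4 of the 10 genes passed the threshold, Hes6 and Dll1 higher and Notch2 and Jag1 lower in Myog-positive cells. The background was high: 41.6% of all 12507 genes tested passed, 18.3% higher and 23.3% lower. The members' count of 4 is near that share and is no result about the list, so the genes are described singly. The median log2 fold change was -0.22 over the members and -0.05 over all genes tested.

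Hes6 rose most among the 10. Its scaled level went from 131 to 691 CPM and from 97.1 to 693 CPM in young replicates 1 and 2, and from 162 to 655, 400 to 1294 and 720 to 1780 CPM in the old replicates. It was higher in the Myog-positive cells in 5 of 5 populations, and in Pax7-positive cells it was higher in old replicates 2 and 3 than in the other 3 populations. The log2 fold change was 2.05 (SE 0.24, edgeR adjusted p = 0.00245), and it lay between 1.76 and 2.46 over the alternatives. In young replicate 3, which did not enter the test, Hes6 was at 533 CPM (unscaled) in the 1090 Myog-positive cells and at 256 CPM in the 9685 cells with neither gene.

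Dll1 rose with it, from 4.90 to 12.8 and from 10.3 to 31.7 CPM across the young populations and from 11.6 to 15.5, 29.95 to 55.4 and 25.6 to 54.2 CPM across the old ones. The smallest step was that of old replicate 1, whose Myog-positive class held 24 Dll1 counts. The log2 fold change of Dll1 was 1.13 (SE 0.15, edgeR adjusted p = 0.00100), higher in 5 of 5 populations. Young replicate 3 had 8.15 CPM (unscaled) in Myog-positive cells and 1.71 CPM in the cells with neither gene.

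Jag1, the other ligand that passed, fell. It went from 4.31 to 0.433 and from 7.82 to 3.27 CPM across the young populations and from 4.63 to 4.51, 4.86 to 2.32 and 3.82 to 1.504 CPM across the old ones, with a log2 fold change of -1.25 (SE 0.23, edgeR adjusted p = 0.00332). The young replicate 1 value rests on 2 counts, and old replicate 1, with 7, was nearly level. Jag2 did not pass, at 0.40 (SE 0.24, edgeR adjusted p = 0.233), and was higher in 3 and lower in 2 of 5 populations. With all Myog-negative cells of the 6 populations as the reference, Jag2 passed at 0.68 (edgeR adjusted p = 0.0174).

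Of the receptors, Notch2 fell by a small amount that all 5 populations shared. It went from 19.8 to 14.5 and from 58.6 to 45.4 CPM across the young populations and from 25.1 to 19.98, 38.2 to 26.5 and 42.5 to 32.5 CPM across the old ones (log2 fold change -0.42, SE 0.06, edgeR adjusted p = 0.00129). Notch1 was level on average (-0.02, SE 0.22), higher in 3 and lower in 2 of 5 populations, and turned to 0.27 without old replicate 2. Notch3 was at -0.32 (SE 0.24, edgeR adjusted p = 0.336). It was higher in the Myog-positive cells in 2 of 5 populations, young replicate 2 (62.8 to 81.1 CPM) and old replicate 1 (7.39 to 9.67 CPM, on 15 counts). It was lower in 3: young replicate 1 (3.20 to 2.60 CPM, on 12 counts) and old replicates 2 and 3 (48.4 to 34.5 and 26.9 to 12.98 CPM). Without young replicate 2 it was -0.60 and passed the threshold (edgeR adjusted p = 0.0497).

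The 3 repressors did not pass. Hes1 was at -0.33 (SE 0.15, edgeR adjusted p = 0.120), and without young replicate 1 it was -0.45 (edgeR adjusted p = 0.0491). Hey1 was at -0.12 (SE 0.20), level in young replicate 2, where it is abundant, at 39.6 CPM in Pax7-positive and 42.5 CPM in Myog-positive cells. It was at 0.12 without old replicate 2. Heyl had a fitted value of -0.64 (SE 0.49), with 0 counts in both classes of young replicate 1 and old replicate 1. In the 3 populations that had it, Heyl went from 0.858 to 1.49 CPM in young replicate 2 and from 1.56 to 0.541 and 2.96 to 1.27 CPM in old replicates 2 and 3. Without young replicate 2 its value was -1.34 (edgeR adjusted p = 0.0263). In old replicate 1 a count of 0 among Myog-positive cells allows a level of up to 2.16 CPM, so little can be said of scarce genes there.

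**Figure D2:**
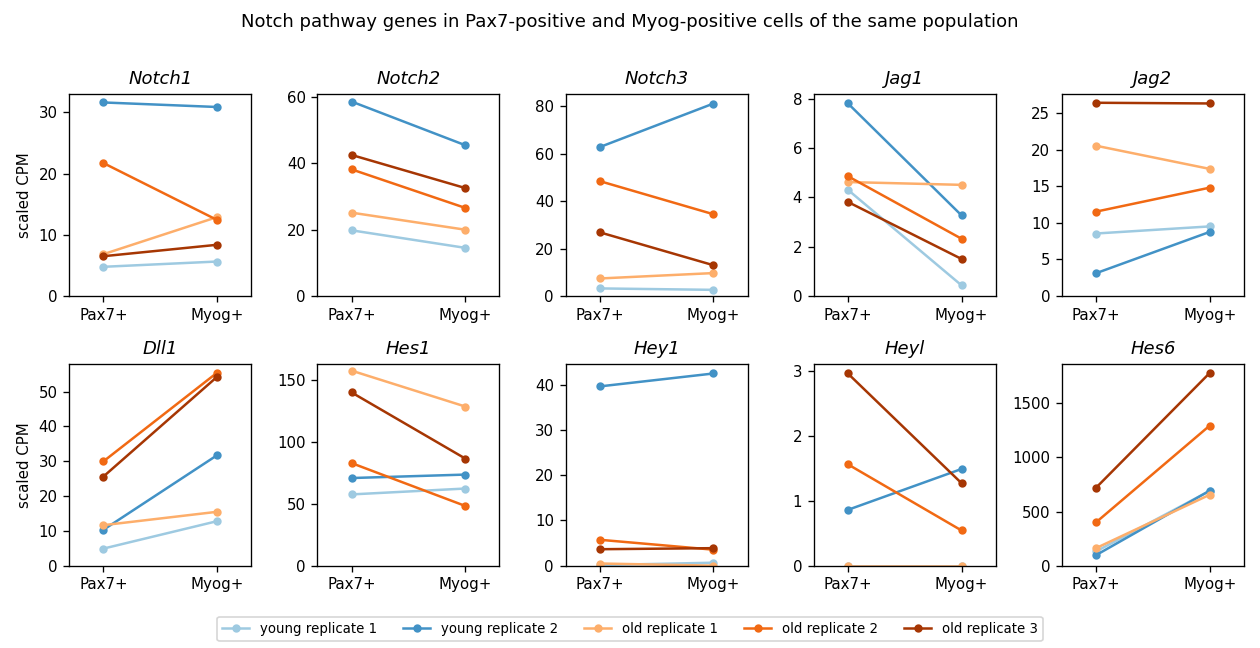
Scaled CPM of each gene in the Pax7-positive (left) and Myog-positive cells (right) of a population, joined by a line per population; young in blue, old in orange. Hes6 and Dll1 rise in 5 of 5 populations and Notch2 falls in 5 of 5, and the Hes1 lines fall in the 3 old populations.

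Promoter windows from RefSeq (GRCm38.p6, 300 bases, 250 before to 50 after a transcript start) were found for 7 of the 10 genes, in 9 windows. Hes1, Hey1 and Heyl were not in the table. Muscle bHLH factors such as MyoD and myogenin bind E-boxes, for which the motif CAGCTG was searched on both strands. It was found in 16.3% of all 32851 windows. Among the genes that differed between the classes, it stood once in both windows of Hes6, in 1 of the 2 windows of Dll1 and in that of Jag1, a gene that fell, and was not found in the window of Notch2. The windows that hold it are printed here with CAGCTG in capitals, all on the minus strand and written 5′ to 3′. Their genes had the largest fitted changes between the classes among the 10 members. Hes1, Hey1 and Heyl had no window to search, and Hes6 and Dll1 had 2 each. A link of the motif to the size of the change was not tested. The first Hes6 window is chr1:91413989-91414288, the second chr1:91413173-91413472, that of Dll1 chr17:15376883-15377182 and that of Jag1 chr2:137116471-137116770.
Hes6 first window: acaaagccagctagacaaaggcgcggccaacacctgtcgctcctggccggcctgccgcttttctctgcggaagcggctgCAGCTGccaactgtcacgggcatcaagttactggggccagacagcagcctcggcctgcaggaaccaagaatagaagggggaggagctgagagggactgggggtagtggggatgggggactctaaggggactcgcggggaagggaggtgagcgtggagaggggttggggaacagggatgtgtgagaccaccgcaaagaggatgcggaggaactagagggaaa
Hes6 second window: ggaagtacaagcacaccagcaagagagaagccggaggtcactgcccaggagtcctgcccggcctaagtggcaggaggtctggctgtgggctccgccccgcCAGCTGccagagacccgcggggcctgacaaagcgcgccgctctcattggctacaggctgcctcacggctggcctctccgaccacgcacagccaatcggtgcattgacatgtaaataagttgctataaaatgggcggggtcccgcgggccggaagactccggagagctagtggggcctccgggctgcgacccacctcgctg
Dll1: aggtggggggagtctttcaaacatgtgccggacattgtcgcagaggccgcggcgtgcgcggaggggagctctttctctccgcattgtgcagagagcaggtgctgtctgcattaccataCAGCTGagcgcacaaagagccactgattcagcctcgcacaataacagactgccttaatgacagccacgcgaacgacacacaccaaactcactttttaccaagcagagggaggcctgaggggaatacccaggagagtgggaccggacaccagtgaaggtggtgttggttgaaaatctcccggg
Jag1: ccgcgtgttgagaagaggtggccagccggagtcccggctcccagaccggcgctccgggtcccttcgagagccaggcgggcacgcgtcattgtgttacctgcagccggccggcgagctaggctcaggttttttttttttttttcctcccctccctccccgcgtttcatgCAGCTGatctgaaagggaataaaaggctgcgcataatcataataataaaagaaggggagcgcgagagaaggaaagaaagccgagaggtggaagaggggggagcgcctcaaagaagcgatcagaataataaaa
The looser E-box CANNTG, which includes CAGCTG, was found in 5 of the 9 windows, those of Jag1, Dll1 and Hes6, and in 72.3% of all windows. The core motif of Rbpj, TGGGAA, searched on both strands, was in none of the 9 windows and in 25.6% of all. A match of letters is a description of the window and does not show binding.

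Because a threshold of 1 UMI is coarse, the thinned cells were also sorted by their Myog UMIs, as a description without a test. Hes6 rose at every step from 0 over 1 and 2 to 4 to 5 or more Myog UMIs in 5 of the 5 populations with at least 20 cells in each bin. In young replicate 2 it went from 111 over 220 and 387 to 989 CPM, and in old replicate 3 from 759 over 1042 and 1347 to 1930 CPM. The cells without a Myog UMI ranged from 93.9 to 759 CPM between populations, and those with 5 or more from 989 to 1973 CPM. Dll1 was higher in the top bin than in the cells without Myog in 6 of 6 populations, for example 1.89 against 36.5 CPM in young replicate 3 and 30.3 against 66.9 CPM in old replicate 2. It rose at every step in 2 populations only, and in young replicate 1 and old replicates 2 and 3 it was highest at 2 to 4 Myog UMIs, at 24.3, 78.4 and 58.7 CPM. Jag1 was lower in the top bin in 6 of 6 populations, between 0 and 1.73 CPM against 3.72 to 8.72 CPM. That bin held 0 Jag1 counts in young replicates 1 and 3 and old replicate 1 (126, 137 and 28 cells). It held 1 count in old replicate 2, so the fall is poorly measured in these populations. Notch2 was lower in the top bin in 5 populations and higher in 1, and Jag2 was higher in 5 and lower in 1. Hes1 was lower in the top bin in young replicate 2 (76.1 to 65.4 CPM) and old replicates 2 and 3 (81.3 to 36.6 and 132 to 51.8 CPM), and higher in young replicates 1 and 3 (52.7 to 54.0 and 25.0 to 46.7 CPM) and old replicate 1 (141 to 150 CPM, on 21 counts in the top bin).

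**Figure D3:**
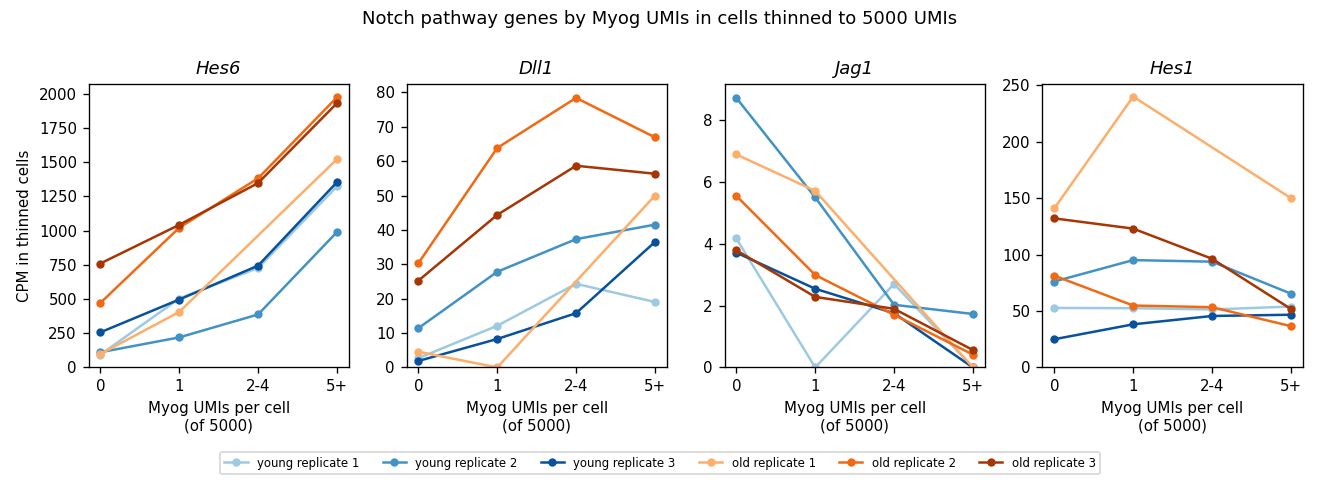
CPM in cells thinned to 5000 UMIs, by the number of Myog UMIs in the cell, for Hes6, Dll1, Jag1 and Hes1, with a line per population and bins of fewer than 20 cells left out. Hes6 climbs along the axis in each population, Jag1 ends lower than it starts in all 6, and Hes1 has no common direction. The last Jag1 point rests on 0 counts in young replicates 1 and 3 and old replicate 1.

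Whether the step from Pax7-positive to Myog-positive cells differed with age was tested as the class by age term, with 2 young and 3 old populations. No member passed (0 of 10 in edgeR and in DESeq2; in edgeR 0.0% of all genes). At an unadjusted p under 0.05, 5 of the 10 members had a negative term, a lower fitted step in the old populations, against 1.66% of all 12507 genes. The 5 were Hes1 (-0.69, SE 0.16), Hes6 (-0.95, SE 0.23), Dll1 (-0.66, SE 0.20), Notch3 (-0.88, SE 0.35) and Heyl (-2.13, SE 0.57), and edgeR's adjusted p was between 0.989 and 1 for each. The Heyl value rests on 1 young and 2 old populations, since both classes of young replicate 1 and old replicate 1 had 0 counts, and without Heyl the count is 4. Counted in either direction, the members at this p were also 5, against 2.91% of all genes. That 2-sided count was 6 without old replicate 2 and 4 without old replicate 3, and DESeq2 gave 3. Over the 10 members the median difference was -0.67, and over all genes 0.01. For Hes6 the smaller step went with a higher level in the Pax7-positive cells of old replicates 2 and 3, as given above.

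**Figure D4:**
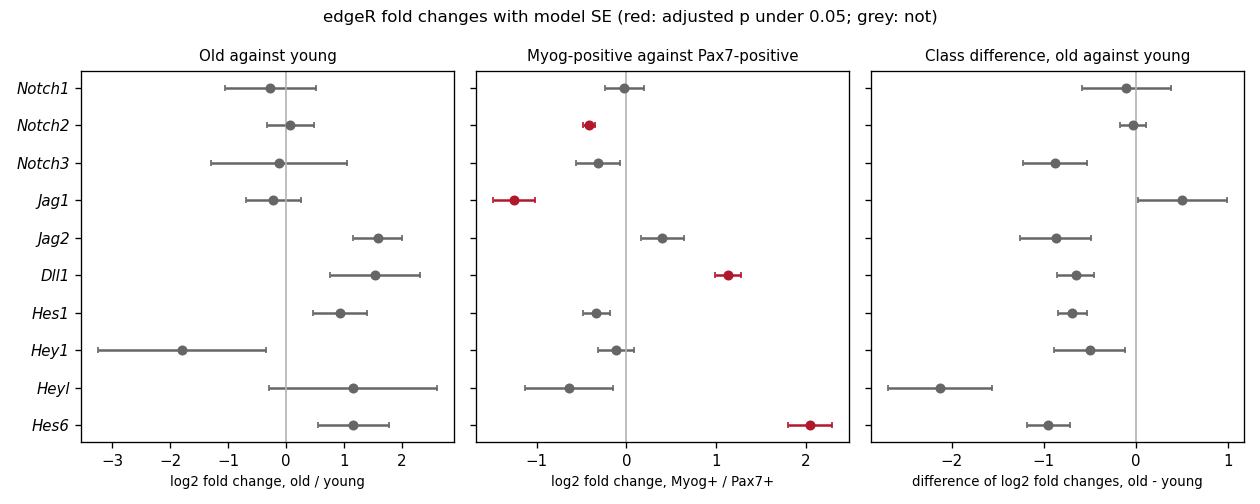
edgeR log2 fold changes with the model SE as bars for old against young (left), Myog-positive against Pax7-positive cells (middle) and the difference of that step between old and young (right); red points have an adjusted p under 0.05. Red points stand only in the middle panel, for Notch2, Jag1, Dll1 and Hes6.

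The rest of the pathway was taken from a list of 42 further genes, grouped by role. Between old and young, 0 of the 37 that could be tested passed in edgeR, against 0.00689% of all genes tested. DESeq2 called 0 of 41, against 266 of all 16662 genes that it tested. Hdac1 alone had an unadjusted p under 0.05 in edgeR (log2 fold change -0.52, SE 0.21, edgeR unadjusted p = 0.0470, adjusted p = 1). Over all genes tested 3.53% had such a p, so this count is no result about the list. The age groups did not overlap in 3 genes, each lower in the old samples, where 2.42% of all genes tested did the same. Hdac1, a histone deacetylase found in Rbpj repressor complexes, was at 56.9, 70.7 and 82.6 CPM across the young populations and 49.3, 47.7 and 48.3 CPM across the old ones. Ep300, an acetyltransferase coactivator, was at 29.0, 31.8 and 32.0 against 25.7, 24.6 and 26.2 CPM. Pofut1, which puts fucose on Notch receptors, was at 11.1, 12.1 and 12.2 against 9.96, 10.2 and 10.6 CPM. All 3 separations depend on the scaling: without TMM factors the age groups of Hdac1 (48.2 to 89.4 against 45.6 to 54.7 CPM), Ep300 (24.5 to 34.7 against 24.7 to 28.4 CPM) and Pofut1 (9.38 to 13.2 against 9.96 to 11.04 CPM) overlap. Of the other ligands and targets, Dll4, Dll3, Dlk1, Hes5 and Hes7 were each at or below 0.202 CPM (unscaled) in every sample, while Dlk2 was between 2.43 and 27.7 scaled CPM.

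Between the cell classes, 11 of the 33 pathway genes that could be tested passed in edgeR, 4 higher and 7 lower in Myog-positive cells, against the same 18.3% and 23.3% of all genes. Among 3 genes for the uptake of ligands into the signal-sending cell, Neurl1a, a ubiquitin ligase for Delta and Jagged, was the 1 that rose, by 2.67 (SE 0.38, edgeR adjusted p = 0.00422). It went from 1.44 to 23.0 and from 7.62 to 44.4 CPM across the young populations and from 0.778 to 22.6, 10.4 to 40.1 and 10.7 to 54.0 CPM across the old ones, higher in 5 of 5. Among 9 genes of receptor cleavage 3 rose: Furin, a protease that processes Notch on its way to the surface (0.62, SE 0.13), and the gamma-secretase subunits Psen2 (0.77, SE 0.15) and Psenen (0.26, SE 0.06). The proteases Adam10 and Adam17, which make the first cut after ligand binding, did not pass. Of 7 nuclear complex genes, the coactivators Maml2 (-0.53, SE 0.10) and Ep300 (-0.23, SE 0.07) fell, and Rbpj itself was at 0.56 (SE 0.19, edgeR adjusted p = 0.0591). Of 8 repressors and turnover genes, Numb, an inhibitor of Notch receptors (-0.39, SE 0.09), Hdac1 (-0.31, SE 0.08), the corepressor Spen (-0.27, SE 0.08) and the ubiquitin ligase Itch (-0.21, SE 0.06) fell. Of 4 sugar-transfer genes, Poglut1 fell (-0.30, SE 0.08). These calls depended on the settings to different degrees. Ep300 lost its call in 9, Itch in 7, Spen in 5, Poglut1 in 4 and Hdac1 in 3 of 14 alternatives. Furin, Numb and Psenen lost it in 2 each, and Maml2, Neurl1a and Psen2 in 1 each.

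**Figure D5:**
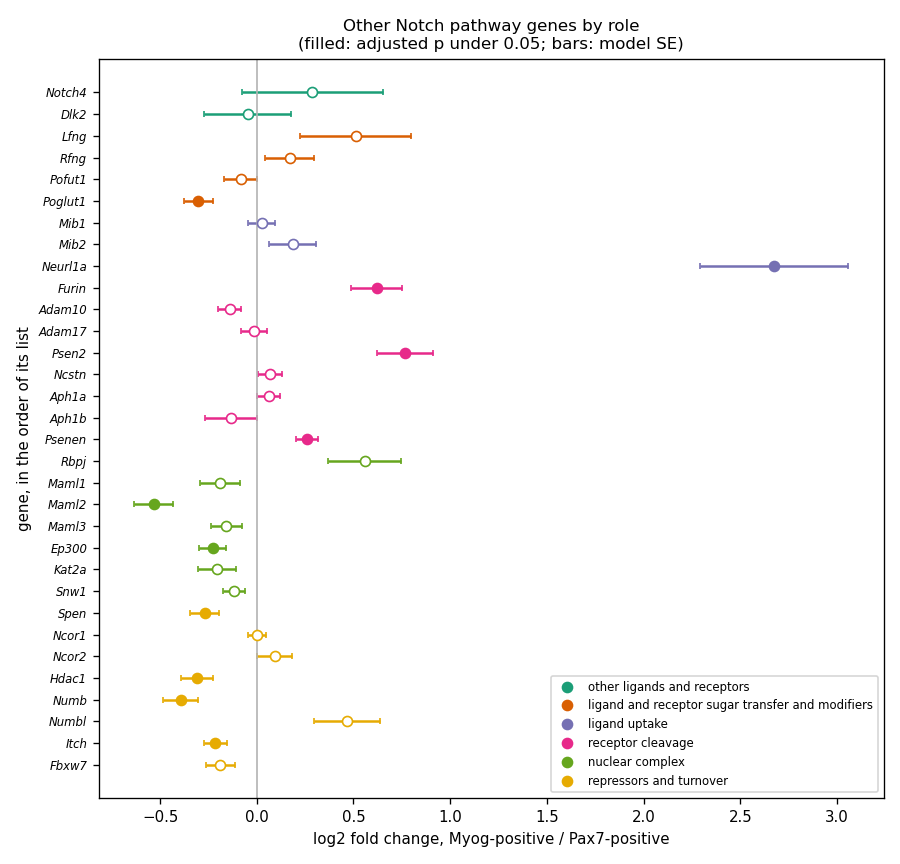
edgeR log2 fold change, Myog-positive over Pax7-positive cells, of other pathway genes that could be tested, coloured by role, with the model SE as bars; filled points have an adjusted p under 0.05. Neurl1a stands apart at 2.67, and the other filled points lie between -0.53 and 0.77.

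Finally, for each of the 4 bHLH genes the 3 genes most alike across the 6 populations were taken, as those with the smallest root mean square difference of centred log2(CPM + 1) among 7961 genes with a mean of at least 10 CPM. Hes6 was most like Id3, an inhibitor of bHLH factors (difference 0.36 on the log2 scale, against a spread of 1.27 for Hes6 itself), then Tppp3 (0.45) and Ilkap (0.50). Id3 was at 417, 993 and 1043 CPM across the young populations and 331, 1844 and 2487 CPM across the old ones. Ilkap lies beside Hes6 on chromosome 1, from 91373861 to 91398815, with 12.7 kb and no other protein-coding gene between them, and was at 104, 179 and 196 CPM across the young populations and 93.6, 284 and 453 CPM across the old ones. Hes1 was most like Prrg4 (0.29), Gch1 (0.33) and Rgs12 (0.34), against its own spread of 0.76. Hey1 was most like Adra1b (0.32), an adrenergic receptor at 59.4 CPM in young replicate 2 and between 0.707 and 12.01 CPM elsewhere, then Zfp385b (0.43) and Fhod3 (0.54). Heyl, on this scale close to 0 in 3 samples, was nearest to Rassf3 (0.14), Cxxc5 (0.15) and Bin1 (0.15), against its own spread of 0.63. This likeness depends on the 1 added to each CPM, which flattens scarce genes. Heyl ran from 0.00883 to 1.93 CPM, a highest level 219 times the lowest, while Bin1 ran from 121 to 413 CPM. These are descriptions over 6 samples that share their library type and were not tested.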

How the data were processed

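Gene expression was measured by droplet-based 3′ single-cell RNA sequencing in 6 MDSPC populations. The authors deposited raw UMI counts per gene and barcode, made with Cell Ranger 7.0.0 (young and old replicate 1, 21849 features) or 7.2.0 (the other 4, 32285 features), per the file headers. The submitters' processing notes name mm10, Cell Ranger 7.2.0 and Seurat 5.134. The annotation release, the treatment of introns and the cell calling are not given in the sources used here. Feature and barcode lists hold names only.

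Barcodes under 1000 UMIs or 500 genes, or with 15% or more of UMIs from 13 mitochondrial genes, were left out. No doublet caller was run, and doublets remain. Counts on the 21485 shared identifiers (98.5% to 99.9% of UMIs) were summed per population, or per population and class, and analysed in R 4.3.3 with the quasi-likelihood test of edgeR 4.0.16 (two-sided, robust fit, TMM scaling, low counts removed by filterByExpr, Benjamini-Hochberg at 0.05 over all genes). The terms were gene list and age, or population and class. SE is the absolute fold change over the square root of F. DESeq2 1.42.0, other thresholds and left-out samples were alternatives. On counts simulated with a much smaller spread than these samples have, edgeR recovered 91% (14509 genes, old against young) and 95% (12450 genes, cell classes) of genes changed by 1 on the log2 scale. The biological coefficient of variation of the real samples was 0.563 in the fit of old against young. The recovered shares are therefore a check of the code and not the sensitivity in these samples. Coordinates come from GENCODE M21 (GRCm38). The members and lists were chosen with earlier results of these data known. Named were the 10 members, pathway genes that passed or whose age groups did not overlap, and the 3 genes most like each bHLH member. Other pathway genes and markers named with values or calls were chosen after their values were seen. One gene of the receptor cleavage list and 1 of the glial list enter the counts or sums but are not reported here.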

Additional observations from a re-analysis of the deposited data

Results flagged for a closer look

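Hes1 was singled out because its step from Pax7-positive to Myog-positive cells went one way in the young populations and the other way in the old ones. With TMM scaling it was slightly higher in Myog-positive cells of young replicates 1 and 2 (57.4 to 62.2 and 70.6 to 73.4 CPM) and lower in those of old replicates 1, 2 and 3 (157 to 128, 82.7 to 48.1 and 140 to 86.3 CPM). Without scaling, the log2 ratio of young replicate 2 was -0.10, so its sign depends on the scaling. That of young replicate 1 was 0.11 with and 0.03 without scaling, small values on 287 Hes1 counts in its Myog-positive cells. How many of all genes split in sign by age in this way was not counted. By Myog UMIs in thinned cells the ages did not divide this way: from 0 to 5 or more Myog UMIs, Hes1 went from 141 to 150 CPM in old replicate 1 and from 76.1 to 65.4 CPM in young replicate 2. These bins start from all cells without a Myog UMI and not from Pax7-positive cells. The top bin of old replicate 1 held 21 Hes1 counts in 28 cells. The difference of the steps was -0.69 (SE 0.16, edgeR unadjusted p = 0.00246, adjusted p = 0.989) and did not pass. Over the alternatives it lay between -1.04 and -0.60, with adjusted p from 0.133 (DESeq2) to 1. No group had the 4 samples that a search for single outlying samples needs.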

How the results depend on the processing

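Between old and young, no alternative called a member, and the genes called over the whole table went from 1 to 266 with DESeq2 and to 0 without the gene list term and on the longer gene list alone. Leaving out single samples gave 0 to 3 genes. Deviations from the group means correlated at 0.396, 0.281 and -0.108 for replicate numbers 1, 2 and 3, and between -0.481 and 0.330 for unlike numbers. With 3 samples per group, and a gene list shared by young and old replicate 1, these values cannot decide whether the numbers pair the samples. With the replicate block, Notch1 became 0.065 and Notch3 0.86, the block called 0 members and 1 gene, and on the longer list alone Notch2 became -0.078. Leaving out single samples gave ranges that changed sign for Notch1 (-0.70 to 0.97), Notch2 (-0.22 to 0.63), Notch3 (-0.68 to 2.42), Jag1 (-0.51 to 0.20) and Hey1 (-2.39 to 1.56).

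For the cell classes, the 4 members called ranged from 4 to 6 without single samples, and Hes6, Dll1, Notch2 and Jag1 passed in each alternative but 1. That was the fit with no replicate block (no population term), which called 0 members and 199 genes in place of 5203, since the spread between populations then enters the error. Notch1 became 0.088 with DESeq2 and 0.38 against all Myog-negative cells, where Notch3 became 0.26 and Hey1 0.25; with no replicate block Hey1 became 0.089. Without single samples Notch1 ran from -0.16 to 0.27 and Hey1 from -0.23 to 0.12. For the age term, genes called went from 0 to 11 with DESeq2 and from 0 to 1 without single samples, with Notch1 between -0.36 and 0.48 and Notch2 between -0.056 and 0.029.

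Heyl had 1 to 3 counts in 3 populations, which leaves its fold changes imprecise. At 2 or more UMIs of the class gene, and at 3 or more of Myog, old replicate 1 had fewer than the required 50 cells in a class, so those fits used 4 populations.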

Other observations

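Some pathway genes outside the 10 also varied between populations, and are named here after their values were seen. Rbpj, the DNA-binding partner of the Notch receptors, was at 180, 27.3 and 84.5 scaled CPM across the young populations and 214, 62.7 and 95.2 CPM across the old ones, lowest in young replicate 2, where Hey1, Notch1, Notch2 and Notch3 were highest. The coactivator Maml3 was at 25.9, 227 and 124 CPM across the young populations and 44.5, 53.0 and 107 CPM across the old ones, and Maml2 was highest in young replicate 3, at 95.1 CPM against 19.6 to 29.9 CPM elsewhere. Dlk2, a Delta-like protein without the usual receptor-binding domain, was at 5.92, 2.43 and 27.5 CPM across the young populations and 11.3, 17.8 and 27.7 CPM across the old ones. None of these 4 passed edgeR's test between old and young.

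Cells with UMIs of both Pax7 and Myog had Hes6 levels between those of the 2 classes in each of the 5 populations tested, from 288 CPM (unscaled) in young replicate 2 to 1201 CPM in old replicate 3. No doublet caller was run, and the part of doublets among these cells was not tested. Dll1 in these cells was above the Pax7-positive level in 5 of 5 populations, for example 59.9 against 32.9 CPM in old replicate 2, though by 13.3 against 13.2 CPM on 4 counts in old replicate 1.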
